A study of Homo sapiens with 2 samples.

Results

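The 30 genes described here encode enzymes and regulators of sterol synthesis, enzymes of fatty acid synthesis, and the LXR nuclear receptors with genes they control. They were chosen by function, with earlier results of these data known, as a sterol arm of 18 genes, a fatty acid arm of 8 and an LXR arm of 4. HT1080 cells, a human fibrosarcoma line, were kept for 24 h in wells of 24-well plates coated with BSA as control or with rLCC111. rLCC111 is a recombinant trimer of truncated mouse laminin alpha1, beta1 and gamma1 chains that holds their coiled-coil region. Both groups were the same line, with 1 GeneChip Human Gene 1.0 ST array per coating. The paper gives fetal calf serum for general culture, while serum in the coated wells and the number of wells behind each RNA sample are not given in the sources used here. Of the 30 genes, 28 have a sequence on the array that carries their symbol alone, out of 18417 such genes. FDFT1 and NR1H2 have no such sequence in the annotation used and were not analysed here.

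Values are log2 expression levels, and each difference is the level on rLCC111 minus that on BSA. With 1 array per coating no difference has a replicate check, so no p-value is given and the values describe these 2 arrays only. Genes were taken as silent up to a log2 level of 6.63, below which 95% of 374 sensory receptor genes had their mean over both arrays. All 28 measured genes lay above it on both arrays. Differences of these receptor genes centred on a median of 0.00 with an SD of 0.18. That SD includes 2 receptor genes at least 2-fold higher, the highest at 1.53, whose brighter array lay above the limit. It was not taken without them. Over all 18417 genes the middle 95% of differences ran from -0.37 to 0.42. The markers of the line were present, with VIM at 13.05 on BSA and 12.98 on rLCC111, whereas EPCAM, PTPRC, PECAM1, ADIPOQ and ALB were below the limit on both arrays. Of the wider marker lists, all 5 mesenchymal genes were above the limit. Their differences were -0.07 for VIM, 0.03 for CDH2, 0.20 for SPARC, 0.49 for FN1 and 0.96 for COL4A1, with CDH2 below 0 after median centring. So were 1 of 3 epithelial, 1 of 3 blood, 0 of 4 endothelial, 1 of 4 adipocyte and 1 of 4 hepatocyte genes measured, namely KRT19, CD14, PLIN1 and APOA1. The differences of the markers of other cell types ran from -0.36 for VWF to 0.24 for CDH5, and the part of these and of the mesenchymal differences in the results was not tested.

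Cells make cholesterol from acetyl-CoA through the mevalonate pathway, squalene and lanosterol. Its enzymes are controlled by SREBP transcription factors, which SCAP escorts from the endoplasmic reticulum when sterols are low and which INSIG proteins hold back when sterols are high. SREBP-2, from SREBF2, acts mainly on sterol genes and SREBP-1, from SREBF1, mainly on fatty acid genes. LXRs are receptors for oxidised sterols. They act in the opposite situation, when sterols are plentiful, and raise genes of cholesterol export and of phospholipid remodelling as well as SREBF1.

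As deposited, most of the 28 genes were slightly higher on rLCC111, and the sterol arm had the highest median. In bulk RNA such as this, fewer cells of a kind and less RNA per cell cannot be told apart. No member was 2-fold different in either direction. Of all genes 0.239% reached 2-fold upward and 0.0869% downward, and of the 12299 genes above the limit on both arrays 0.211% and 0.106% did. At a smaller step, a log2 difference of 0.32, HMGCS1, INSIG1, STARD4 and LPCAT3 were higher and none was lower. Of all genes 4.56% reached that step upward and 3.68% downward, and of those above the limit on both arrays 5.11% and 4.33%. Of the 374 sensory receptor genes 4.28% reached it, in each case upward. These were 16 genes, of which 5 had their brighter array above the limit. A difference of this size thus also occurred among genes taken as silent, but the 4.28% is not a share of silent genes alone. Nearest to the step were LPCAT3 at 0.33 inside it and CYP51A1 at 0.29 outside it.

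The difference was above 0 in 24 of the 28 members and below 0 in 4, where 46.2% of all genes, and the same 46.2% of those above the limit on both arrays, were above 0. A further 46.6% of all genes were below 0 and 7.19% had the same level on both arrays. The median difference was 0.17 in the sterol arm, 0.09 in the fatty acid arm and 0.12 in the LXR arm, against 0.00 over all genes. These medians rest on 17, 8 and 3 measured genes. That of the LXR arm is the value of NR1H3, whose level lay just above the limit. The counts moved with the scaling of the arrays. After median centring, 17 members were above 0 against 26.4% of all genes. The corresponding values were 24 members against 44.2% after removal of a lowess trend and 23 against 34.1% after quantile normalization. The step of 0.32 was reached upward by 1 member after centring (2.78% of all genes up, 6.94% down), by 5 after lowess (4.39% up, 3.79% down) and by 4 after quantile normalization (3.49% up, 5.17% down). No member reached it downward under any of these scalings.

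**Figure D1:**
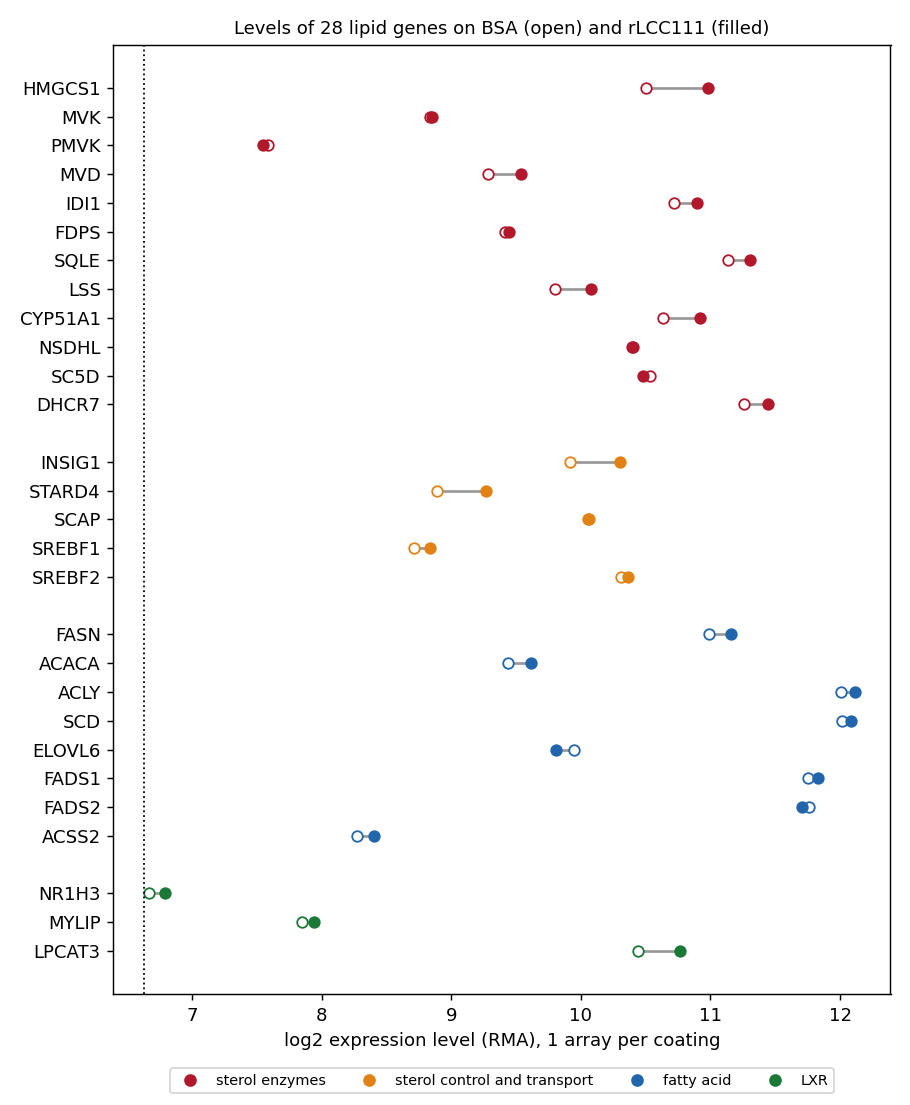
Log2 expression level (horizontal) of the 28 measured genes on the BSA array (open circles) and the rLCC111 array (filled circles), 1 array per coating, coloured by group; the dotted line marks the limit of silent genes at 6.63. The filled circle lies right of the open one for 24 genes and left of it for PMVK, SC5D, ELOVL6 and FADS2, and the longest grey bar is that of HMGCS1.

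In the sterol arm, differences varied from step to step of the pathway, from -0.06 for SC5D to 0.47 for HMGCS1. HMGCS1, which condenses acetyl-CoA with acetoacetyl-CoA into HMG-CoA, had a log2 level of 10.50 with BSA and 10.98 with rLCC111. This was a difference of 0.47, a fold of 1.39, the largest of the 28 genes and 348th from the top among 18417. The fold was 1.32 to 1.43 over 4 scalings of the arrays, namely the values as deposited, median centring, removal of a lowess trend and quantile normalization. Both mevalonate kinases lay close to 0. MVK, mevalonate kinase, was at 8.83 and 8.85, and its difference of 0.02 was below 0 after median centring and quantile normalization. PMVK, which adds the next phosphate, was at 7.59 and 7.55, a difference of -0.04. Neither of these kinases differed by more than the SD of the sensory receptor genes, 0.18. The same holds for IDI1, FDPS, SQLE, NSDHL and SC5D among the enzymes below.

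MVD, which decarboxylates mevalonate pyrophosphate to the isoprene unit, was at 9.28 with BSA and 9.54 with rLCC111, a difference of 0.26. IDI1, the isomerase of that unit, was at 10.72 and 10.89, a difference of 0.17. FDPS, which joins isoprene units to farnesyl pyrophosphate, was at 9.41 and 9.44, a difference of 0.03 that was below 0 after median centring. The isoprene steps thus ranged from a fold of 1.02 for FDPS to 1.19 for MVD.

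SQLE, the epoxidase of squalene, was at 11.13 with BSA and 11.31 with rLCC111, a difference of 0.17. LSS, which closes the rings of lanosterol, was at 9.80 and 10.08, a difference of 0.27 and a fold of 1.21. CYP51A1, the lanosterol demethylase, was at 10.63 and 10.92, a difference of 0.29 and a fold of 1.22. These enzymes act one after another in the pathway and were higher on rLCC111 under all 4 scalings. CYP51A1 is the member with a second sequence of its own on the array, which was at 9.79 and 10.13, a difference of 0.35. Among 409 genes with 2 differing sequences above the limit, the differences of the 2 sequences disagreed by a median of 0.072, and by up to 0.35 in 90% of the genes.

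The late enzymes differed among themselves. NSDHL, which removes a methyl carbon of the sterol ring, was at 10.40 on both arrays to 2 decimals, with a difference of 0.01 that was below 0 after median centring. SC5D, the desaturase of lathosterol, was at 10.53 and 10.48, a difference of -0.06. DHCR7, the reductase of 7-dehydrocholesterol, was at 11.26 and 11.45, a difference of 0.19 and a fold of 1.14. The 12 measured enzymes had a median difference of 0.17. Of them, 7 were higher under all 4 scalings, 2 (PMVK and SC5D) were lower under all 4, and MVK, FDPS and NSDHL changed sign.

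Among the genes that control sterols or carry them, INSIG1 and STARD4 had larger differences than SCAP and the SREBP genes. INSIG1, which retains SCAP when sterols are plentiful and is itself induced by SREBPs, was at 9.92 with BSA and 10.30 with rLCC111, a difference of 0.38 and a fold of 1.30. STARD4, which carries cholesterol between membranes, was at 8.89 and 9.27, a difference of 0.37 and also a fold of 1.30. They ranked 579th and 610th from the top among all genes. SCAP was at 10.06 on both arrays to 2 decimals, with a difference of 0.01 that was below 0 after median centring. SREBF2 was at 10.31 and 10.37, a difference of 0.06 that was also below 0 after median centring. SREBF1 was at 8.72 and 8.84, a difference of 0.12 and a fold of 1.09, above 0 under all 4 scalings. SREBP activity depends on cleavage of the protein, which an array does not measure.

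**Figure D2:**
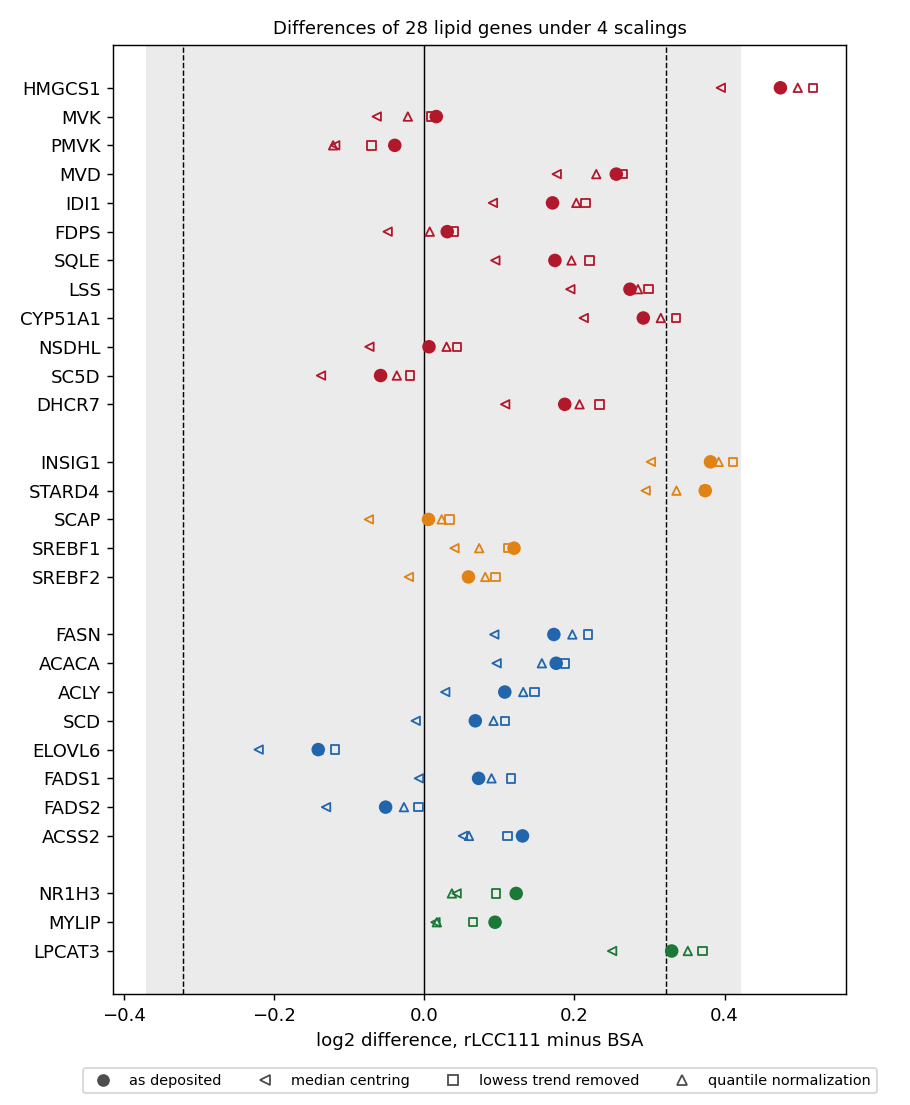
Log2 difference, rLCC111 minus BSA (horizontal), of each of the 28 genes as deposited (filled circles) and after median centring, removal of a lowess trend and quantile normalization (open symbols). Colours are those of the sterol enzymes (red), sterol control and transport (orange), fatty acid (blue) and LXR (green) genes, dashed lines mark 0.32 in either direction and the grey band the middle 95% of all genes as deposited. HMGCS1, at 0.47, is the gene outside the band, and median centring gives the lowest value of most genes.

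The promoter windows shown are those of the 4 members past 0.32 and of SREBF2, the member whose window holds the letters of a sterol regulatory element. RefSeq promoter windows on GRCh38.p14 reach from 250 bases before a gene's start to 50 bases after it, and 26 of the 28 measured genes have one. The letters searched, on both strands, were TCACNCCAC for the sterol regulatory element, CCAAT for the box bound by NF-Y, a partner of SREBPs, CACGTG for the E-box, GGGCGG for the GC box bound by SP1, and the DR4 direct repeat bound by LXR with RXR. In the sequences below, given 5′ to 3′ on the strand of the gene, capitals mark TCACNCCAC, CCAAT or CACGTG on either strand, so CCAAT on the other strand reads ATTGG. The windows are chr5:43313363-43313662 (minus strand), chr7:155297628-155297927 (plus strand), chr5:111512486-111512785 (minus strand), chr12:7018427-7018726 (minus strand) and chr22:41832855-41833154 (plus strand).
HMGCS1: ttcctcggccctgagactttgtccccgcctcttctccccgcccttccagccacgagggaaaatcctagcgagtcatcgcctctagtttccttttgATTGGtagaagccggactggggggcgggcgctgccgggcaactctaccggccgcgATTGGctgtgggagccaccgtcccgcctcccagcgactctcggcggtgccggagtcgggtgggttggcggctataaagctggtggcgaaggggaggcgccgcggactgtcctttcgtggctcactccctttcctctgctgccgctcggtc
INSIG1: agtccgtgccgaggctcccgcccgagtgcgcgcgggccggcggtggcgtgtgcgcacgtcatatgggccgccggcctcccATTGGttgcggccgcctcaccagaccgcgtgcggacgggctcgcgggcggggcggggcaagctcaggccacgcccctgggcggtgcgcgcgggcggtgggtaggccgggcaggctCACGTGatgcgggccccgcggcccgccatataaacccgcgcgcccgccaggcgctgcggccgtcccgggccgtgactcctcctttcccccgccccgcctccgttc
STARD4: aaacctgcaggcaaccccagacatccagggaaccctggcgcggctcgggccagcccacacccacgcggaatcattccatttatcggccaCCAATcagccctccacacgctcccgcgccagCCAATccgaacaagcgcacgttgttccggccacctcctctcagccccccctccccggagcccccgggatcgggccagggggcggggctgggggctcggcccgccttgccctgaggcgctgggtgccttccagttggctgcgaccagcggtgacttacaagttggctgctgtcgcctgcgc
LPCAT3: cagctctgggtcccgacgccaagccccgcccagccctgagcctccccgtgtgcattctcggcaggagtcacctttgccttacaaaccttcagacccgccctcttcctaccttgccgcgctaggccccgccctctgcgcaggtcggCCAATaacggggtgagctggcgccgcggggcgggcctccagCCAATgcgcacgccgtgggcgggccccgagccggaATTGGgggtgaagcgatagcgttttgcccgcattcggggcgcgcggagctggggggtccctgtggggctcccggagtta
SREBF2: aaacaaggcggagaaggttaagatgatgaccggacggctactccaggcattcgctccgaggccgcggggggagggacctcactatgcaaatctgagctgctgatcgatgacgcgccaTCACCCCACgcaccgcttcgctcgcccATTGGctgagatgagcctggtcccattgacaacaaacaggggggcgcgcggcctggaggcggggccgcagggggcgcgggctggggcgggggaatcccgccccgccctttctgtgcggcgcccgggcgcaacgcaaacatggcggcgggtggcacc

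HMGCS1 has 2 windows in the table, of which the first listed is shown, and the other does not hold CCAAT. In the windows shown CCAAT began 155 and 100 bases before the start of HMGCS1, 161 and 130 before that of STARD4, and 170 before that of INSIG1. It began 105, 64 and 29 bases before the start of LPCAT3. An E-box stood 55 bases before the start of INSIG1. In SREBF2 the letters of the sterol regulatory element began 133 bases before the start, and CCAAT 106 before it. A CCAAT box was found in 20 of the 26 members with a window (76.9%), against 42.2% of 14239 array genes with a window and 34.6% of all 35116 windows. By arm these were 12 of 16 sterol genes, 5 of 7 fatty acid genes and 3 of 3 LXR genes. The letters TCACNCCAC were in 1 of the 26, against 1.51% of array genes and 1.13% of all windows. The E-box was in 4 of the 26 (INSIG1, LSS, SC5D and SCAP), against 10.9% of array genes and 7.26% of all windows, and the GC box in 25, against 65.9% and 45.0%. The DR4 repeat was in none of the 26, against 0.014% of array genes and 0.0199% of all windows. Its exact letters are so rare that a count of none could be foreseen. Lack of the exact letters of this repeat or of TCACNCCAC does not show that a site is absent. The CCAAT box was in all 4 members past 0.32 and in most of the others. The array genes with a window include silent ones, whereas all measured members lay above the limit on both arrays. Shares among genes above the limit were not taken, so whether these gaps are particular to the members was not tested. A match of letters is a description and not a site of binding, and windows that a gene has from several starts were counted together.

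In the fatty acid arm, differences were small and of mixed sign. FASN, the synthase of palmitate, had a log2 level of 10.99 with BSA and 11.16 with rLCC111, a difference of 0.17. ACACA, which makes malonyl-CoA for it, was at 9.44 and 9.61, a difference of 0.18 and the largest of the arm. ACLY, which supplies acetyl-CoA from citrate, was at 12.01 and 12.12, a difference of 0.11. ACSS2, which supplies it from acetate, was at 8.27 and 8.40, a difference of 0.13. These 4 genes of supply and chain synthesis were above 0 under all 4 scalings, with folds of 1.08 to 1.13 as deposited. To 2 decimals none of their differences was larger than 0.18, the SD of the sensory receptor genes. The scalings use the same 2 arrays, so a shared sign is no replicate check.

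The genes that lengthen and desaturate fatty acids were closer to 0 or below it. SCD, the delta-9 desaturase that makes oleate, was at 12.01 and 12.08, a difference of 0.07 that was below 0 after median centring. FADS1, the delta-5 desaturase, was at 11.75 and 11.83, likewise a difference of 0.07 that was below 0 after median centring. FADS2, the delta-6 desaturase beside it, was at 11.76 and 11.71, a difference of -0.05. ELOVL6, which extends palmitate to stearate, was at 9.95 with BSA and 9.81 with rLCC111, a difference of -0.14 and the lowest of all 28 genes. ELOVL6 and FADS2 were below 0 under all 4 scalings. No gene of the arm reached 0.32 in either direction under the 4 scalings, and whether the arms differ could not be tested with 1 array per coating.

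In the LXR arm, the receptor gene that was measured was dim, and the LXR target LPCAT3 had the largest difference. The other receptor gene of the arm, NR1H2, was not analysed, so its level is not known here. NR1H3, which encodes LXR-alpha, had a log2 level of 6.67 with BSA and 6.79 with rLCC111, a difference of 0.12. Both levels lay just above the limit of silent genes. MYLIP, a ubiquitin ligase induced by LXR that marks lipoprotein receptors for breakdown, was at 7.85 and 7.94, a difference of 0.09. LPCAT3, which puts polyunsaturated fatty acids into phospholipids, was at 10.44 and 10.77, a difference of 0.33 and a fold of 1.26, 799th from the top among all genes. All 3 were above 0 under the 4 scalings, and the fold of LPCAT3 ran from 1.19 to 1.29. The order of the fatty acid and LXR medians turned with the scaling, with LXR the higher as deposited and after centring and the lower after lowess and quantile normalization, while the sterol median was the highest under all 4. The LXR median was the value of NR1H3 under all 4, so this order rests on a dim gene.

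**Figure D3:**
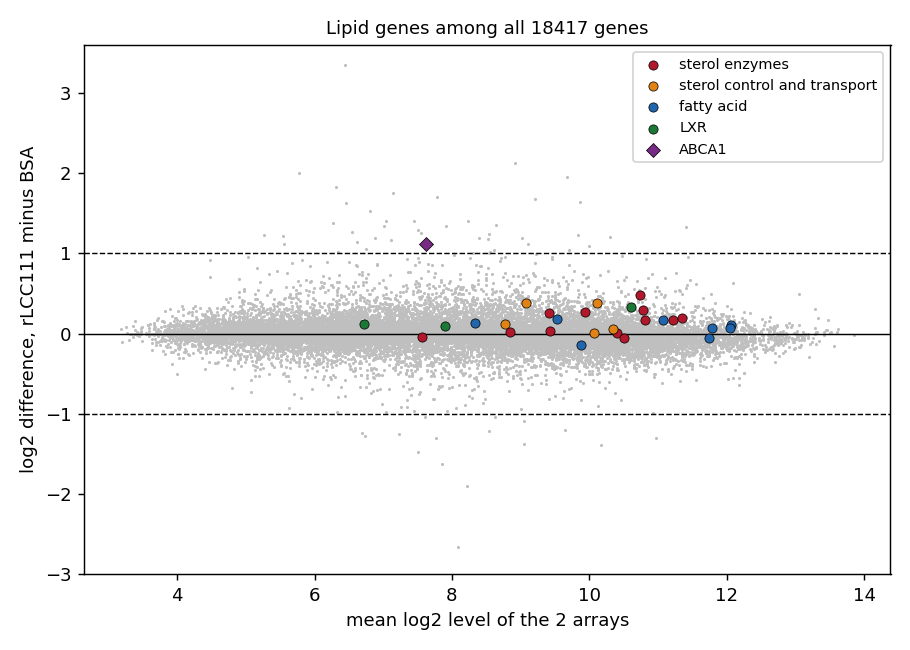
Log2 difference, rLCC111 minus BSA (vertical), against the mean log2 level of the 2 arrays (horizontal) for 18417 genes (grey), with the 28 members coloured by group and ABCA1 as a diamond; dashed lines mark 2-fold. All 28 members lie within the dashed lines, and ABCA1 lies just above the upper one at 1.11.

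Other genes of the same pathways were taken from lists drawn up by function, also with earlier results of these data known. Of 18 further sterol genes measured, 9 had a difference above 0 and 9 below 0, with a median of 0.01 that was below 0 after median centring. SOAT1, which esterifies cholesterol for storage, was at 10.10 with BSA and 9.77 with rLCC111. Its difference of -0.33, a fold of 0.793, was the one past 0.32 in size in this list, where 3.68% of all genes reached that step downward. The count was 0 after lowess, with SOAT1 at -0.31, and 3 after median centring, with LBR at -0.35 and ERLIN2 at -0.33, where 6.94% of all genes reached it. LBR, a sterol reductase of the inner nuclear membrane, was at 10.62 and 10.35, a difference of -0.27. ERLIN2, which takes part in the sterol-driven breakdown of endoplasmic reticulum proteins, was at 8.94 and 8.69, a difference of -0.25. The other 15 ran from -0.24 to 0.22. The median was 0.17 in the sterol arm and 0.01 in these other sterol genes. Both sets were chosen with earlier results known, so this gap is no finding about the members, and it was not tested.

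Of 26 further fatty acid genes, 12 had a difference above 0 and 14 below 0, with a median of -0.05. ELOVL2, which extends long polyunsaturated chains, was at 7.72 with BSA and 7.03 with rLCC111, a difference of -0.70 and a fold of 0.617, 60th from the bottom among all genes. ME1, the malic enzyme that supplies NADPH, was at 10.41 and 10.78, a difference of 0.37. ACSL1, which activates fatty acids with CoA, was at 8.70 and 8.37, a difference of -0.33. HACD4, a dehydratase of chain elongation with a difference of 0.40, was below the limit of silent genes on both arrays. Thus 2 genes reached 0.32 upward and 2 downward, against 4.56% and 3.68% of all genes. After median centring the counts were 0 and 4, against 2.78% and 6.94%.

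Of 15 further LXR genes, 8 had a difference above 0, 5 below 0 and 2 had the same level on both arrays, with a median of 0.04 that was below 0 after median centring and quantile normalization. ABCA1, the LXR target that exports cholesterol to apolipoproteins, was at 7.07 with BSA and 8.18 with rLCC111. Its difference of 1.11, a fold of 2.16, was the one past 2-fold in this list. Of all genes 0.239% reached 2-fold upward and 0.0869% downward. The study listed ABCA1 among its 2-fold genes on these same arrays, so its difference is no independent evidence. ABCG1, another exporter under LXR control, was at 6.96 and 7.10, a difference of 0.14. NCOA6, a coactivator of nuclear receptors, was at 9.38 and 9.49, a difference of 0.12. RXRA and RXRB, the partners of LXR above the limit, were at 9.42 and 9.49 and at 9.58 and 9.55. The direction of RXRA flipped to below 0 after median centring, while ABCA1, ABCG1 and NCOA6 were above 0 under all 4 scalings. In this list 9 of the 15 genes had both arrays below the limit of silent genes, among them LPL, PLTP, CETP, ABCG5 and ABCG8, so the list could show little beyond its 6 brighter members.

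**Figure D4:**
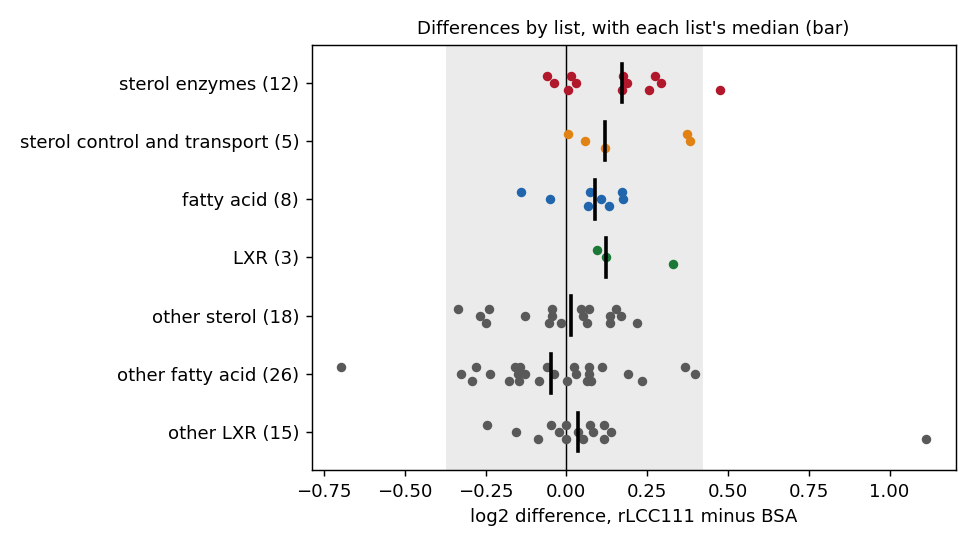
Log2 difference, rLCC111 minus BSA (horizontal), of each gene (points) in the 4 groups of members and the 3 lists of other pathway genes, with the number of genes measured in brackets, black bars at the medians and a grey band for the middle 95% of all genes. The bar of the sterol enzymes stands farthest to the right at 0.17, that of the other fatty acid genes lies left of 0 at -0.05, and ABCA1 is the point at 1.11.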

How the data were processed

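Total RNA of HT1080 cells was measured on 2 GeneChip Human Gene 1.0 ST arrays, 1 per coating. The authors processed the scans by RMA with Affymetrix Expression Console, with settings and version not given in the sources used here. Their deposited log2 values were used unchanged. RMA corrects background, normalizes between arrays and summarises probes. The paper's methods name limma, which cannot be fitted without replicates. The precision is limited by the number of arrays.

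Of 33297 sequences, 19460 carry 1 symbol, 1754 several and 12083 none in the annotation used, with symbols updated by gene identifier to GRCh38.p14 RefSeq. A gene took its sequence with 1 symbol and the highest mean level. The array medians were 7.04 on BSA and 7.12 on rLCC111, while the median difference of the 18417 genes was 0.00. On the arrays 1325 genes had identical levels. Members and lists were chosen with earlier results of these data known. Named genes are all members and, in each pathway list, those at least 2-fold different and the 3 largest differences above the limit of silent genes. RXRA, RXRB, HACD4, single markers and the genes given as dim were named once values had been seen. The alternatives tried were centring on array medians, lowess (span 0.2, 3 iterations), quantile normalization, the mean over sequences and 2 filters on dim genes. The code for counting and scaling was tested on simulated data with less noise than the arrays, which checks its arithmetic and not the power to detect differences. Calculations used Python 3.11.15, numpy 2.4.6, pandas 2.3.3, statsmodels 0.14.6 and matplotlib 3.10.9.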

Additional observations from a re-analysis of the deposited data

How the results depend on the processing

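Median centring over all sequences moved every difference by -0.0794, the sensory receptor genes and the median of all genes included. It gave medians of 0.091 in the sterol arm, 0.010 in the fatty acid arm and 0.043 in the LXR arm, and left 1 sterol member (HMGCS1) and 0 LXR members past 0.32 upward, against 3 and 1 as deposited. Quantile normalization lowered the median of all genes to -0.058. Under it the LXR median was 0.037, which is the value of NR1H3, the middle of 3 measured genes. Why that value moved was not tested. The sterol median under this scaling was 0.25 above that of all genes. Relative to all genes, the sterol median was 0.17 to 0.25 higher over the 4 scalings, the fatty acid median 0.090 to 0.15 and the LXR median 0.094 to 0.12. The filters on dim genes removed no member, and the mean over sequences touched CYP51A1 alone. No alternative moved a member by more than 0.086, and none gave a member a 2-fold difference. No paired analysis was possible because each coating has 1 array. Depth is not defined for arrays, and the dim LXR genes limit what their list can show.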

Other observations

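On the array 2 further sequences carry the symbols of both FDPS and its pseudogene FDPSP2, and they were not used for FDPS. They were at log2 levels of 8.06 and 8.15 on BSA and 7.94 and 7.95 on rLCC111, differences of -0.11 and -0.19, where the sequence of FDPS alone had 0.03. Signal of the gene and of the pseudogene cannot be told apart in them.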
